A study of Tupaia belangeri with 6 samples.

Results

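AMPA and kainate receptors are ionotropic glutamate receptors, ion channels of excitatory synapses that are assembled from several subunits. The 9 members described here are the subunit genes GRIA1, GRIA2, GRIA3 and GRIA4 of the AMPA receptors and GRIK1, GRIK2, GRIK3, GRIK4 and GRIK5 of the kainate receptors. They were chosen by name, as the rows of the count matrices that carry these symbols, which are 9 of 83605 features in all. Hippocampal nuclei of 6 naturally aged tree shrews (TSs, Tupaia belangeri) were sequenced, with 1 library per animal. The 3 control TSs carry the label Normal, and the 3 TSs with Alzheimer's-like pathology (ALP) carry the label AD. ALP was assigned by slow completion of a pipeline maze, and the study names no transgene, drug or other treatment as a means of producing it. Its methods describe imaging under isoflurane, a tracer injection for PET-CT, and saline perfusion before tissue was taken. The age and sex of the animal behind each library are not in the labels. The comparison of ALP with control TSs asks which transcripts differ in the hippocampus of aged animals with and without this phenotype.

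AMPA receptors carry most fast excitatory transmission. GRIA2 is known to make these channels impermeable to calcium once its transcript is edited by ADARB1, so that channels without GRIA2 pass calcium. GRIK1, GRIK2 and GRIK3 form kainate channels by themselves, whereas GRIK4 and GRIK5, the high-affinity subunits, need a partner from the first 3. In the hippocampus kainate receptors are known from mossy fibre synapses and from interneurons, and oligodendrocyte precursors (OPC) carry both receptor types and receive synapses from neurons.

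The filter of the study kept 28233 nuclei, 1614 to 7022 per library, with a median of 1503 to 2188 unique molecular identifiers (UMIs, each counting 1 captured transcript molecule). Clusters were named from marker genes as Gran-like (granule neurons, 2623 nuclei), Pyra-like (pyramidal neurons, 2290), InN-like (interneurons, 2429), ExN-like (other excitatory neurons, 416), OPC-like (2720), Oligo-like (oligodendrocytes, 8720), Astro-like (astrocytes, 3240), Micro-like (microglia, 1610), Endo-like (endothelium, 496), Epend-like (ependyma, 159) and Mural-like (104), written below without the ending. The Endo cluster also carried the mural markers PDGFRB, NOTCH3, ABCC9, DCN and COL1A2, so it is not purely endothelial. The Mural cluster carried PDGFRB, DCN and COL1A2, whereas NOTCH3 and ABCC9 did not pass there. A further 2004 nuclei, the shallow ExN, carried excitatory markers at a median of only 762 UMIs, and 1135 of them came from Control 3. Another 1422 nuclei had no name. Some sums are thin, since Control 2 held 57 Gran nuclei and Control 3 held 60 Pyra nuclei. The intergenic feature LINC-FRMD8-1 took 13 to 22.5% of all UMIs in control libraries and 21.0 to 27.3% in ALP libraries. This feature enters the total of every CPM value (the UMIs of a gene per 1000000 UMIs summed over a library and class), and results without it are given where they differ.

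GRIK1 itself was near absent in this annotation. Its row held 2 UMIs in the kept nuclei, 1 in Gran of Control 1 and 1 in InN of Control 2. A feature named as a copy of it, GRIK1li1 (identifier TSDBGID.4413, beside TSDBGID.3634 for GRIK1), held 35351 UMIs, and it was the only copy named after a member. The other 8 members held between 1625 UMIs (GRIK3) and 82271 UMIs (GRIK2). Whether GRIK1li1 is the locus itself under another name or a paralog that shares reads with it cannot be told from the files, so its values are given under its own name. The study lists GRIK1 among the glutamatergic synapse genes lower in ALP in its nuclei, and reports it lower by RT-qPCR of the hippocampus. Its RT-qPCR used the primers below, which show the transcript that its authors took as GRIK1. They were not placed on either feature here.
GRIK1 forward primer: tggccaaccgaacactcatt
GRIK1 reverse primer: cccgcacatacgtgatggta

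Besides the members, 28 antisense and 38 intergenic features are named after them. GRIK1-AS-2 held 1131 UMIs and was highest in InN at 68.3 ± 55.7 CPM (SD, n = 6 libraries), followed by OPC at 14 ± 14.7 CPM, which are also the leading classes of GRIK1li1. GRIK2-AS-2 held 1501 UMIs (InN, 48.7 ± 24.7 CPM), GRIA4-AS-4 held 1068 UMIs (InN, 49.5 ± 18.7 CPM) and GRIA3-AS-2 held 849 UMIs (OPC, 30.1 ± 21.4 CPM). Since the use of strand in the counting is not stated, reads of a subunit and of its antisense feature may not be separable.

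The subunits fell into distinct patterns across the classes of nuclei, described first over all 6 libraries. GRIA1, which carries activity-dependent AMPA receptor insertion, was a neuronal gene here. Its level was 961 ± 196 CPM in InN, 826 ± 151 in shallow ExN, 803 ± 140 in ExN, 660 ± 89.3 in Gran and 511 ± 130 in Pyra. In OPC, Astro and Oligo it was 98.0 ± 31.4, 88.3 ± 27.3 and 83.4 ± 39.9 CPM. The level in InN was 9.80 times that in OPC and higher in 6 of 6 libraries (exact two-sided sign-flip test over libraries, p = 0.031, the smallest that 6 libraries allow). Ependyma stood apart from the other non-neuronal classes with 459 ± 152 CPM of GRIA1, ranging from 305 to 709 CPM across libraries, on 140 UMIs in all. The other 3 AMPA subunits reached only 45.9 to 84.0 CPM in Epend. The summed neuronal markers SNAP25, SYT1, RBFOX1 and RBFOX3 reached 396 to 1037 CPM in Epend, with RBFOX3 at 0, against 4376 to 7611 CPM in Gran, Pyra and InN.

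**Figure D1:**
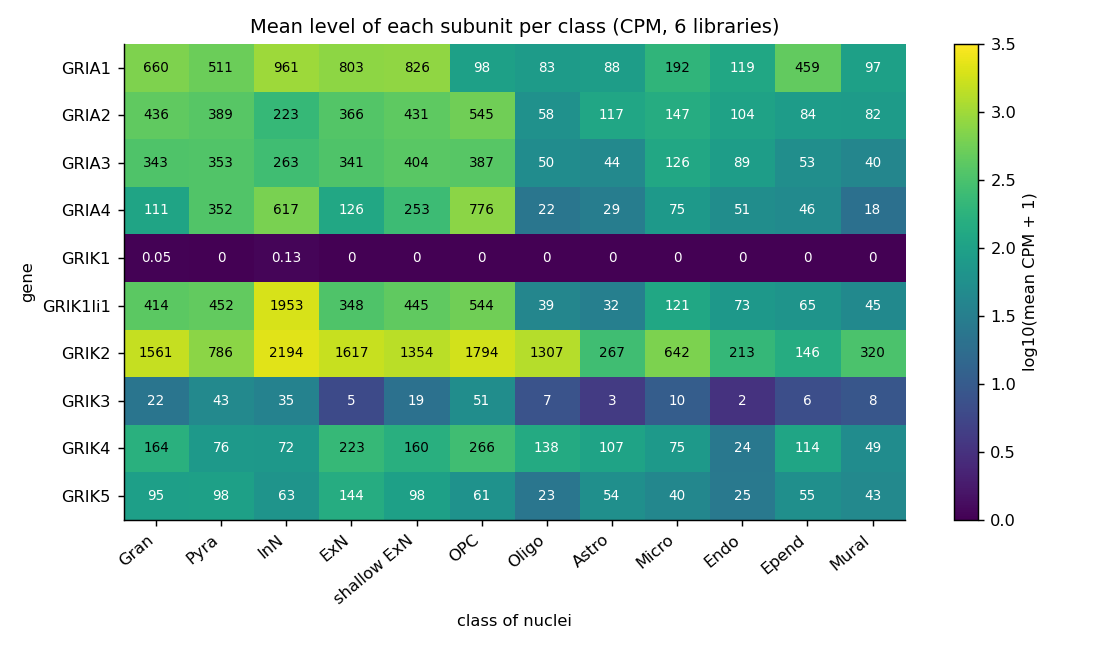
Mean level of each gene (rows) in each class of nuclei (columns) in CPM, over 6 libraries. Colour gives log10(mean CPM + 1), and rows are to be read across classes. GRIK1 is at or near 0 throughout, GRIK1li1 peaks in InN at 1953 CPM, and GRIA1 is high in neurons and Epend but low in OPC.

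GRIA2 and GRIA3 were shared by excitatory neurons and OPC. GRIA2 was highest in OPC with 545 ± 110 CPM, followed by Gran (436 ± 40.4), shallow ExN (431 ± 21.0), Pyra (389 ± 30.3) and ExN (366 ± 81.3). InN held less, 223 ± 22.8 CPM, and lay below ExN in 6 of 6 libraries. GRIA3 ran from 404 ± 37.3 CPM in shallow ExN through 387 ± 57.9 in OPC, 353 ± 42.1 in Pyra, 343 ± 43.2 in Gran and 341 ± 119 in ExN to 263 ± 49.0 in InN, and was 44.0 ± 18.7 CPM in Astro. Each class lay above the next in 3 to 5 of 6 libraries, so neighbours were not separated, whereas shallow ExN lay above Gran and above InN in 6 of 6 libraries. With no upper limit on genes per nucleus, where no shallow ExN class formed, GRIA3 was highest in Pyra.

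GRIA4, the subunit known for fast channels, was led by OPC (776 ± 119 CPM) and InN (617 ± 66.5). Pyra followed with 352 ± 239 CPM, a spread between libraries close to the level itself, and then shallow ExN with 253 ± 63.4. Gran held 111 ± 31.8 CPM and Oligo 22.4 ± 12.5. OPC exceeded InN in 4 of 6 libraries, so that these classes were not separated, and InN was the highest with no upper limit on genes. The OPC thus held 3 AMPA subunits at neuronal levels and GRIA1 at the level of Astro and Oligo. Of the UMIs of AMPA subunits in control OPC, GRIA1 took 6.60% ± 1.55 (SD, n = 3) and GRIA4 took 46.8% ± 6.18. In control Gran these shares were 45.2% ± 6.67 and 6.32% ± 2.63.

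Among kainate subunits GRIK2, the main channel-forming subunit of the hippocampus, was widespread. It reached 2194 ± 357 CPM in InN, 1794 ± 193 in OPC, 1617 ± 294 in ExN, 1561 ± 143 in Gran, 1354 ± 241 in shallow ExN and 1307 ± 398 in Oligo, and was 786 ± 162 in Pyra. InN lay above each other class in 6 of 6 libraries. Oligo lay above Pyra in 6 of 6 libraries, whereas the AMPA subunits were 22.4 to 83.4 CPM in Oligo. In the 7 Oligo clusters, GRIK2 pooled over libraries lay between 1002 and 1898 CPM, so that its level did not come from a single cluster. After each nucleus was thinned to 1000 UMIs, 60.6% ± 7.34 of Oligo nuclei (SD, n = 6) had a GRIK2 UMI, against 37.6% ± 10.5 of Micro, 18.6% ± 3.33 of Astro and 15.5% ± 5.84 of Endo. Micro was taken as the class that should hold little of these genes. The median depths before thinning of the nuclei used were 1450 UMIs in Oligo, 1907 UMIs in Micro and 1890 UMIs in Astro.

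GRIK1li1 was the most interneuronal of the features. It measured 1953 ± 403 CPM in InN, 3.59 times the 544 ± 36.9 CPM of OPC and above it in 6 of 6 libraries. Pyra (452 ± 142), shallow ExN (445 ± 115), Gran (414 ± 268) and ExN (348 ± 95.9) were not separated from each other, and Oligo and Astro held 39.1 ± 17.7 and 31.9 ± 11.1 CPM. At 1000 UMIs, 69.6% ± 6.52 of InN and 38.9% ± 2.28 of OPC nuclei had a GRIK1li1 UMI, against 8.80% ± 3.35 of Micro.

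The remaining kainate subunits were sparse. GRIK3 was highest in OPC (51.3 ± 8.40 CPM) and Pyra (42.8 ± 23.9), and 4.95% ± 1.06 of OPC nuclei had a UMI of it at 1000 UMIs. GRIK4 was highest in OPC (266 ± 63.8 CPM) and ExN (223 ± 121), with 164 ± 33.4 CPM in Gran, 138 ± 43.6 in Oligo, 107 ± 24.7 in Astro and 71.8 ± 14.4 in InN. GRIK5 was highest in ExN (144 ± 15.2 CPM), with 97.8 ± 19.9 in Pyra and 94.6 ± 24.4 in Gran. With no upper limit on genes the highest class became InN for GRIK3 and Pyra for GRIK5. Over the 99 neighbouring pairs of classes in these orders the smallest adjusted p was 0.281 (exact two-sided sign-flip test, Benjamini-Hochberg). With 6 libraries the unadjusted p of this test cannot fall below 0.031. A pair could therefore pass an adjusted threshold of 0.05 only if most of the 99 pairs reached that floor. The adjusted test thus cannot tell whether single neighbours are separated. Micro held 642 ± 115 CPM of GRIK2 and 192 ± 33.2 of GRIA1, but its larger cluster held 473 ± 106 and 83.8 ± 34.8 CPM. A Micro cluster of 178 nuclei that also carried Gran markers held 1086 ± 75.4 and 480 ± 53.3 CPM. The summed neuronal markers reached 1566 to 2339 CPM in Micro, 835 to 1336 in Endo and 481 to 1374 in Oligo, and their part in the subunit levels of these classes was not tested.

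Levels also differed inside the named classes. Cluster 14 of InN carried SST, NPY, LHX6 and GRIN3A together with PVALB, TAC1 and TLL1, cluster 18 carried ADARB2, CALB2, VIP and PROX1, and cluster 27 carried LAMP5, KIT and RELN, while clusters 16 (led by CNR1) and 20 (led by ST6GALNAC2 and LAMP5) had fewer than 3 markers of any subtype. These are descriptions of clusters, with no test. GRIA1 was 1418 ± 374 CPM in cluster 14 and 1620 ± 254 in cluster 20, but 460 ± 73.3 in cluster 16, 302 ± 47.0 in cluster 18 and 309 ± 171 in cluster 27. GRIA4 followed the same division, with 951 ± 98.7 and 844 ± 93.6 CPM in clusters 14 and 20 and 186 ± 46.9 in cluster 18. GRIA3 was 506 ± 92.8 CPM in cluster 14 against 68.3 ± 19.7 in cluster 18. GRIK3 among InN was highest in cluster 14, at 95.8 ± 23.9 CPM against means of 2.46 to 6.88 CPM in the other 4 clusters. GRIK1li1 ran the other way, with 2836 ± 285 CPM in cluster 18 and 1025 ± 160 in cluster 20. GRIK2 was 4446 ± 820 CPM in cluster 27, the highest of the 5.

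**Figure D2:**
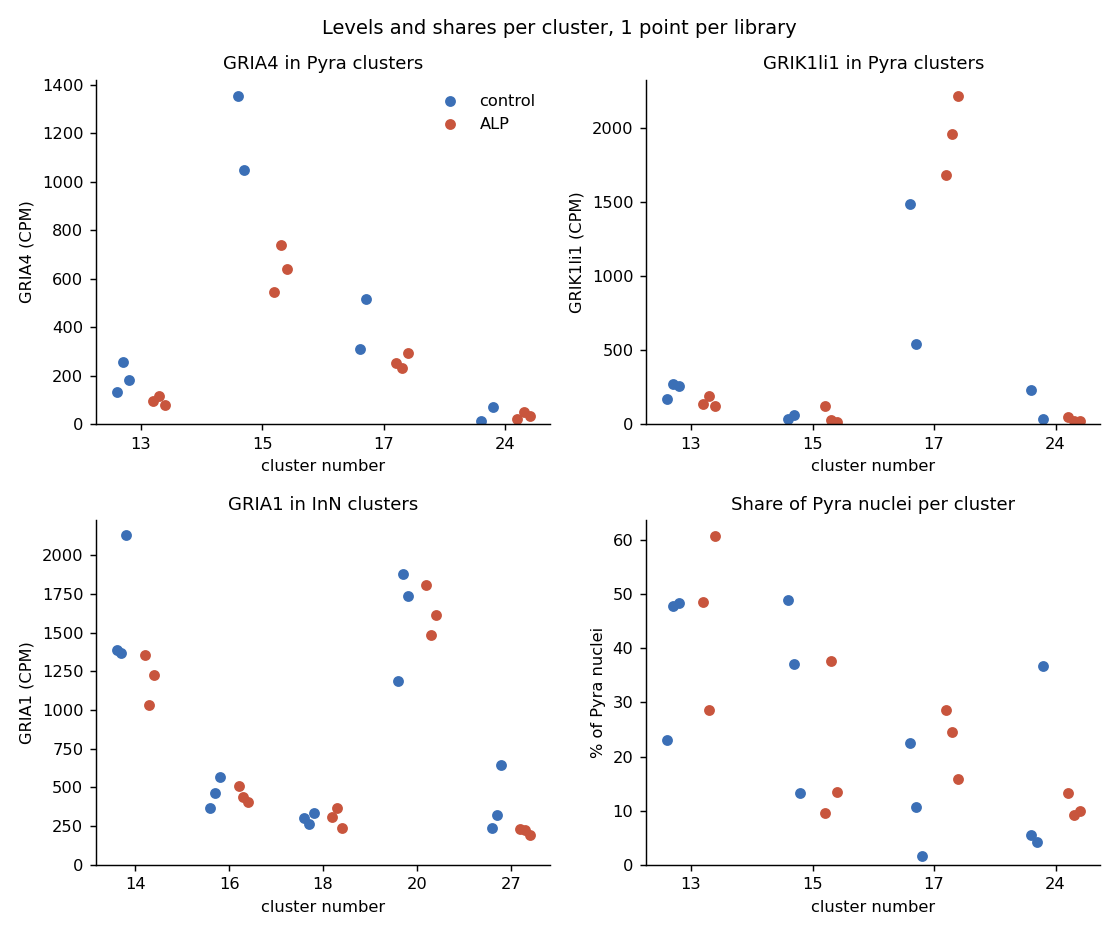
GRIA4 and GRIK1li1 in the Pyra clusters, GRIA1 in the InN clusters (CPM, 1 point per library with at least 10 nuclei of the cluster, control blue, ALP red), and the share of each library's Pyra nuclei in each cluster. GRIA4 is high in cluster 15, GRIK1li1 in cluster 17, and the clusters' shares vary widely between libraries.

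The Pyra clusters differed from each other as well. Cluster 15 (640 nuclei, led by TSHZ2 and PLXND1) held 966 CPM of GRIA4 over all its UMIs, against 269 in cluster 17 (506 nuclei, led by COL8A1 and COL21A1), 106 in cluster 13 (915 nuclei, led by PRSS16 and THPO) and 35.8 in cluster 24 (229 nuclei, led by POSTN and NDST4). GRIA1 was arranged otherwise, with 790 CPM in cluster 13 and 484 in cluster 24 against 148 and 136 in clusters 15 and 17. GRIK1li1 reached 1779 CPM in cluster 17 and 49.7 to 152 CPM in the other 3. Cluster 17 also held GRIK3 at 167 CPM, and GRIK4 was 155 CPM in cluster 15 against 10.4 in cluster 24. In Gran, GRIK1li1 was 1579 CPM in cluster 22 (370 nuclei, led by TEX13A and TIAM2) and 343 CPM in cluster 1 (2253 nuclei). Control 1 held 27.8% of its Gran nuclei in cluster 22 and the other libraries 3.51 to 7.48%, and Control 1 had the highest Gran level of GRIK1li1, 922 CPM against 177 to 454.

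For each member with a mean of at least 10 CPM in some class, the genes with the most similar pattern were found over the 72 sums of library and class, by the correlation of log2(CPM + 1) across 10137 named genes. The points share libraries and depth, and the values are descriptions. The leading gene was DCLK1 for GRIA1 (r = 0.854), TNR for GRIA2 (r = 0.821), CSRNP3 for GRIA3 (r = 0.899), SGCZ for GRIA4 (r = 0.890), HECTD4 for GRIK2 (r = 0.829), DPP10 for GRIK3 (r = 0.762), CSMD2 for GRIK4 (r = 0.722), ACTR3B for GRIK5 (r = 0.788) and SLC2A13 for GRIK1li1 (r = 0.891). Next in line were DLGAP2 for GRIA1, CDK14 and PPM1E for GRIA2, DSCAM and DCC for GRIA3, KCNQ5 and TNR for GRIA4, DSCAML1 and TMEM59L for GRIK2, MACROD2 and LRCH2 for GRIK3, EFS and NLGN1 for GRIK4, PGAP1 and PPM1E for GRIK5, and XKR4 and CSMD1 for GRIK1li1. Among the members, GRIA4 and GRIK1li1 were most alike (r = 0.874), and GRIK4 and GRIK5 were least alike (r = 0.243).

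ALP and control TSs were then compared on UMIs summed per library and class, 3 against 3, with edgeR's quasi-likelihood test adjusted over all genes of the class. A gene was called at an adjusted p under 0.05 and a log2 fold change beyond 0.25. No tested member and no copy was called in any of the 11 comparisons (10 classes and all nuclei). GRIK1, with 2 UMIs in the kept nuclei, was not tested in any of them, so its level in ALP was not compared. Of the 88 pairs of gene and comparison tested, 14 had an unadjusted p under 0.05, which is 15.9%, and DESeq2 gave 13 such pairs and also called none. In the comparisons that held these pairs, such a p was reached by 18.1% of all genes in Gran, 13.9% in Pyra, 19.7% in InN, 13.4% in shallow ExN, 17.2% in Astro, 15.4% in OPC, 21.7% in Oligo, 13.8% in Micro and 23.4% over all nuclei, so the share among the members was near that of all genes. The share of all tested genes that was called was 1.82% in Gran, 0.550% in ExN, 1.05% in shallow ExN, 1.65% in OPC, 4.68% in Oligo, 0.217% in Astro and 0.430% in Micro. It was 0% in Pyra, InN, Endo and all nuclei. There an unadjusted p under 0.05 was found for 1751, 2352, 92 and 5323 genes, and DESeq2 called 66, 471, 1 and 1740. Complete separation of the groups was also common among all genes. All ALP libraries lay above all controls for 11.1% of genes in Gran (GRIA2 of the members), 10.4% in Pyra (GRIA2 and GRIA3), 11.3% in InN (GRIA4), 8.30% in shallow ExN (GRIA4), 9.43% in OPC (GRIA2 and GRIK3) and 12.8% over all nuclei (GRIA2 and GRIA3). They lay below all controls for 11.7% in Gran (GRIK5), 9.15% in Pyra (GRIK4), 8.26% in shallow ExN (GRIA1), 10.7% in Astro (GRIA4 and GRIK5), 9.43% in OPC (GRIA1 and GRIK5) and 11.1% in Oligo (GRIK5). The absence of calls among the members is to be read against these low shares, and the values below are sizes with their errors. CPM in these paragraphs carry the scaling factors of the test (TMM) and are named scaled CPM. The separations above are in scaled CPM and partly depend on these factors. Without them GRIA2 and GRIA3 overlapped in Pyra and over all nuclei, as did GRIA4 in InN. Some pairs not listed above then separated, such as GRIK5 in Pyra and in InN, lower in ALP. Besides GRIK1, GRIK3 was not tested in ExN, shallow ExN, Astro and Micro, and only GRIA1 and GRIK2 were tested in Endo, for want of counts.

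**Figure D3:**
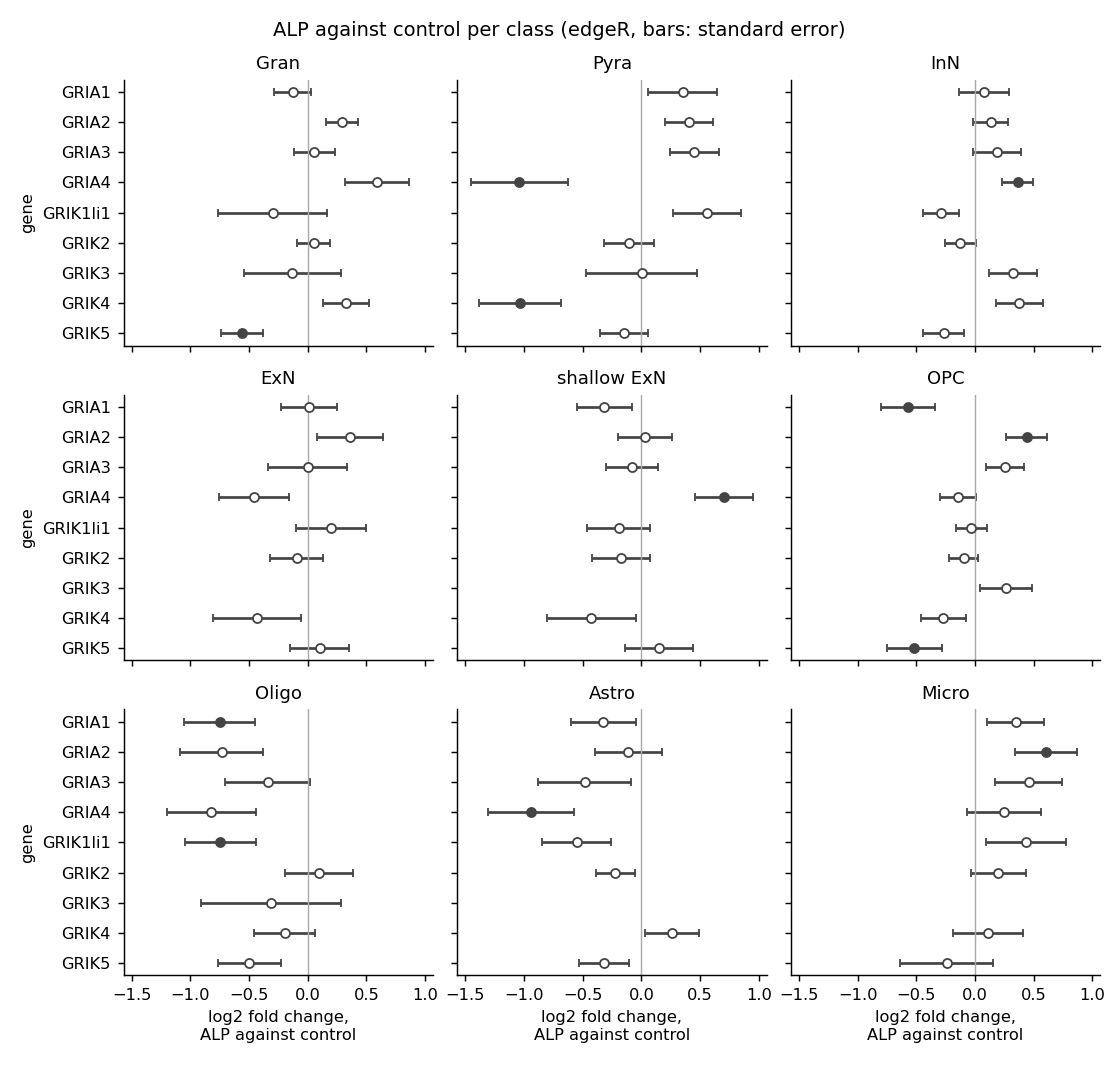
Log2 fold change of each tested gene, ALP against control, in 9 classes, with the standard error (edgeR, 3 against 3 libraries). Filled points have an unadjusted p under 0.05, open points do not, and none passed after adjustment. GRIA4 and GRIK4 in Pyra have the lowest values, -1.04 each.

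In Gran, GRIK5 was 120, 93.2 and 134 scaled CPM in the control libraries and 76.8, 82.9 and 83.1 in the ALP libraries. The groups did not overlap, as for 11.7% of all Gran genes in this direction, and the log2 fold change was -0.56 ± 0.18 (SE, adjusted p = 0.121). GRIA2 in Gran was 402, 407 and 421 scaled CPM in controls and 490, 479 and 537 in ALP, again without overlap, as for 11.1% of all Gran genes (log2 fold change 0.29 ± 0.14, adjusted p = 0.297). GRIA1, GRIA3 and GRIK2 in Gran differed by -0.13 ± 0.16, 0.05 ± 0.17 and 0.05 ± 0.14. GRIA4 in Gran was 60.5, 137 and 99.0 scaled CPM in controls and 164, 116 and 124 in ALP, with overlap (log2 fold change 0.59). GRIK4 in Gran had a log2 fold change of 0.33, also with overlap. GRIK1li1 spanned 182 to 944 scaled CPM within controls alone, with Control 1 far above the others, and its log2 fold change was -0.30 ± 0.46.

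In Pyra, GRIA4 was 685, 534 and 180 scaled CPM in controls and 168, 350 and 186 in ALP. Control 3 lay among the ALP libraries, and the log2 fold change was -1.04 ± 0.41 (adjusted p = 0.302). GRIK4 was 129, 82.8 and 87.1 against 40.1, 80.3 and 30.9 scaled CPM, with ALP 2 just under the lowest control (log2 fold change -1.04 ± 0.35, adjusted p = 0.241). Without ALP 2 GRIK4 passed the threshold, with a log2 fold change of -1.54 and an adjusted p of 0.0391, and among the alternatives run for single classes it was the only member to do so in a neuronal class. In that fit 162 of 13359 genes were called, against 0 of 12605 with all libraries. GRIA2 and GRIA3 had positive log2 fold changes in Pyra of 0.40 ± 0.20 and 0.45 ± 0.21, at adjusted p of 0.417 and 0.376. Without the scaling factors both overlapped. GRIA2 was then 354, 382 and 388 CPM in controls and 387, 378 and 446 in ALP. GRIA3 was 293, 344 and 368 against 415, 325 and 373 CPM.

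The Pyra clusters are not equally represented in the libraries. Cluster 15, where GRIA4 is high, made up 48.9, 37.2 and 13.3% of Pyra nuclei in controls, whereas in ALP it made up 9.62, 37.6 and 13.5%. Within cluster 15 GRIA4 was 1354 and 1050 CPM in Control 1 and Control 2 and 544, 740 and 642 CPM in ALP, with Control 3 left out for having 8 nuclei. The log2 fold change within the clusters was -0.75 ± 0.21 in cluster 15 (adjusted p = 0.272), -0.72 ± 0.27 in cluster 13 (adjusted p = 0.322) and -0.36 ± 0.25 in cluster 17 (adjusted p = 0.722), by edgeR with 2 or 3 control and 3 ALP libraries. The sign was the same in the 3 clusters where GRIA4 was tested. The fits of clusters 15 and 17 lacked Control 3, which had 8 nuclei and 1 nucleus there and the lowest GRIA4 level of the controls in Pyra. The part of the cluster shares in the GRIA4 value of Pyra was not tested. GRIK4 differed by -1.78 ± 0.61 in cluster 13, -1.01 ± 0.31 in cluster 17 and -0.10 ± 0.42 in cluster 15. GRIK1li1 differed by 0.94 ± 0.31 in cluster 17 (adjusted p = 0.340), 0.44 ± 0.78 in cluster 15 and -0.37 ± 0.26 in cluster 13. No member was called in a cluster, where 0.0836% (cluster 13), 0.178% (cluster 15), 0% (cluster 17) and 0% (cluster 24) of all genes were, and 867, 350, 578 and 414 genes had an unadjusted p under 0.05. The fits by cluster were added after the values of the whole class had been seen.

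**Figure D4:**
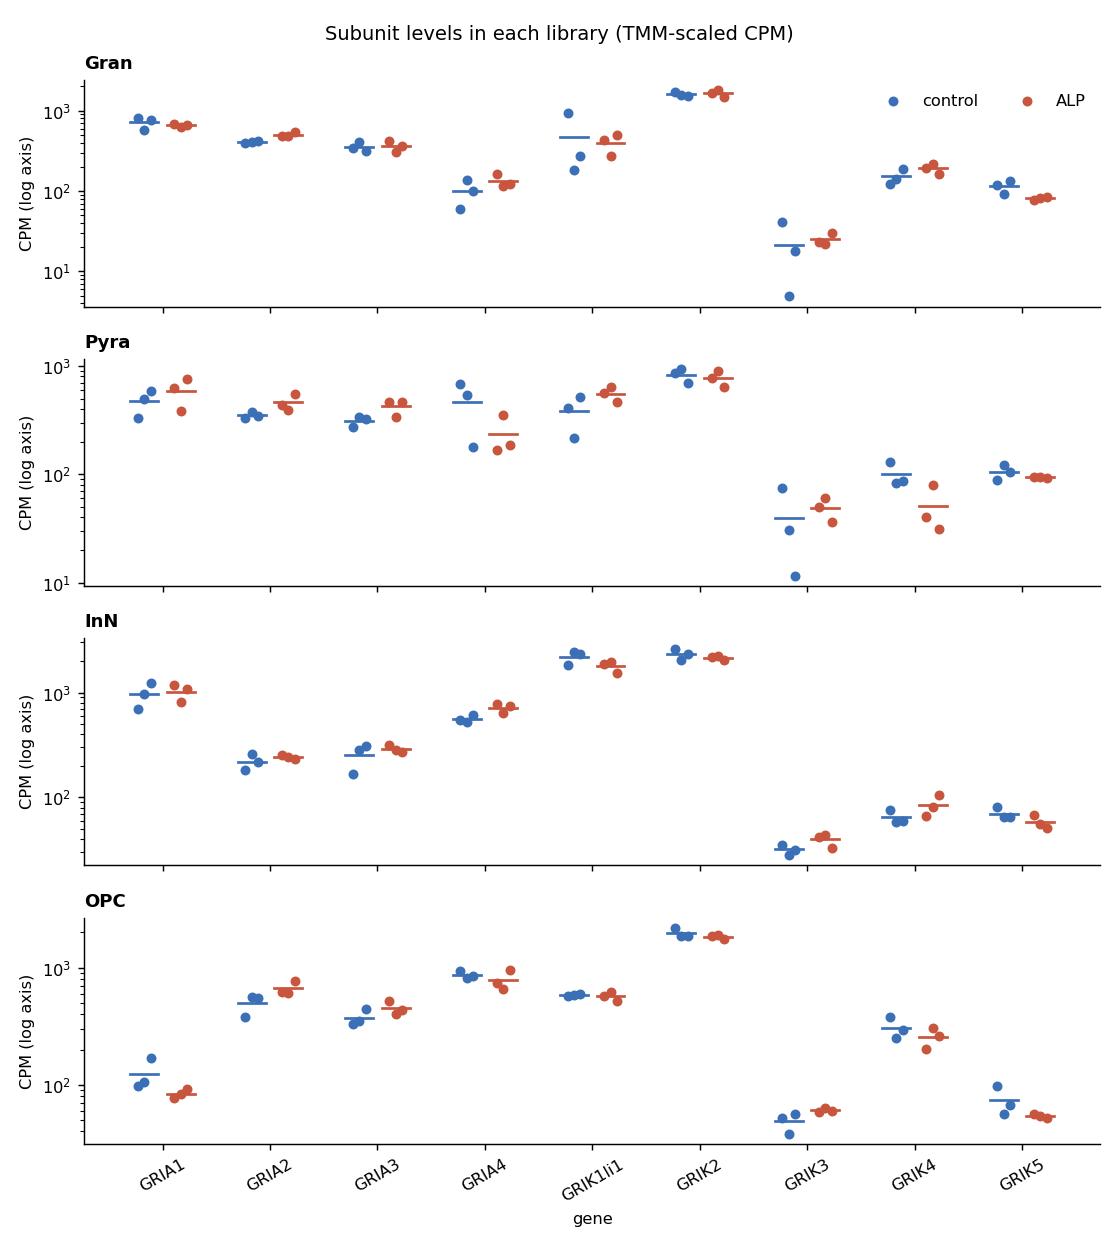
Scaled CPM of each tested gene in every library on a log axis, in Gran, Pyra, InN and OPC, with control libraries in blue, ALP libraries in red and bars at the group means. GRIA2 in Gran, Pyra and OPC and GRIA4 in InN lie higher in all ALP libraries, GRIK5 in Gran and OPC and GRIK4 in Pyra lie lower, and none passed the adjusted threshold. Without the scaling factors GRIA2 in Pyra and GRIA4 in InN overlapped between groups.

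In InN, GRIA4 was 545, 519 and 613 scaled CPM in controls and 780, 639 and 739 in ALP (log2 fold change 0.36 ± 0.13, adjusted p = 0.166). All ALP libraries lay above all controls, as for 11.3% of all InN genes. Without the scaling factors the groups overlapped, with 630 CPM in Control 3 and 626 CPM in ALP 2. GRIK2 was 2622, 2063 and 2338 against 2176, 2241 and 2026 scaled CPM and overlapped (log2 fold change -0.12 ± 0.13). GRIK1li1 was 1825, 2449 and 2319 against 1886, 1961 and 1547 scaled CPM, with Control 1 below ALP 1 and ALP 2 (log2 fold change -0.29 ± 0.15, adjusted p = 0.324). Its sign differed between classes. The log2 fold change of GRIK1li1 was also negative in Gran, OPC, Oligo, Astro (-0.55), shallow ExN (-0.19) and all nuclei (-0.16). It was positive in Pyra (0.56), Micro (0.43) and ExN (0.20). In Pyra it was 413, 216 and 511 scaled CPM in controls and 558, 632 and 463 in ALP, with overlap. In cluster 14 alone GRIA4 was 1002, 763 and 980 CPM in controls and 1009, 923 and 1027 in ALP, where the groups overlapped.

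The difference of the ALP effect between neuronal classes was tested directly, with the library as a block. The effect on GRIA4 was lower in Pyra than in Gran by 1.69 on the log2 scale, a difference of -1.69 ± 0.47 (adjusted p = 0.150), and InN minus Pyra was 1.42 ± 0.43 (adjusted p = 0.347). For GRIK4 these differences were -1.49 ± 0.35 (adjusted p = 0.0715) and 1.48 ± 0.36 (adjusted p = 0.191). Both sides enter the Pyra minus Gran values. In the fits of single classes GRIA4 had log2 fold changes of 0.59 in Gran and -1.04 in Pyra, and GRIK4 had 0.33 and -1.04. No member passed with edgeR, 0.307% of all genes did for Pyra minus Gran, 0.00713% for InN minus Gran and 0.0214% for InN minus Pyra, and DESeq2 also called no member. Both genes passed for Pyra minus Gran without Control 3 (adjusted p of 0.0180 for GRIA4 and 0.0273 for GRIK4) and without ALP 2 (0.0232 and 0.00742). Of all genes, 47 of 14705 passed for this pair without Control 3 and 107 of 14759 without ALP 2. Without ALP 2 both also passed for InN minus Pyra, where 57 of 14759 genes did. Without Control 1, Pyra minus Gran shrank to -0.87 for GRIA4 and -0.92 for GRIK4 (adjusted p of 0.600 and 0.519), and with no upper limit on genes it was -1.03 and -1.25 (adjusted p of 0.832 and 0.776).

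Among OPC, GRIA2 was 379, 560 and 549 scaled CPM in controls and 622, 608 and 777 in ALP (log2 fold change 0.44 ± 0.17, adjusted p = 0.242). GRIA1, already low there, was 98.5, 106 and 169 against 77.5, 83.9 and 91.2 (log2 fold change -0.57 ± 0.23, adjusted p = 0.245), and GRIK5 was 98.5, 56.8 and 67.8 against 56.0, 54.3 and 52.1 (-0.52 ± 0.23, adjusted p = 0.316). The groups did not overlap for any of the 3, as for 9.43% of all OPC genes in each direction. The summed neuronal markers in OPC were 296, 310 and 570 CPM in controls and 380, 375 and 324 in ALP, with 3 of 4 lower in ALP, and were highest in Control 3, as was GRIA1. Their part in the GRIA1 difference was not tested. GRIK2, GRIA4 and GRIK1li1 differed in OPC by -0.10 ± 0.12, -0.15 ± 0.16 and -0.03 ± 0.13.

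In Oligo, GRIA1 was 55.6, 123 and 143 scaled CPM in controls and 65.5, 60.0 and 61.0 in ALP (log2 fold change -0.75 ± 0.30, adjusted p = 0.178). Control 1 lay below all ALP libraries, and Control 2 and Control 3 lay above them. GRIA2 (34.0, 99.3 and 95.1 in controls, up to 50.4 in ALP) and GRIK1li1 (29.8, 65.1 and 58.0 against 34.1, 26.2 and 25.4) also had Control 1 far below the other controls. Without Control 1, GRIA1 and GRIA2 passed in Oligo, with log2 fold changes of -1.11 and -1.16 at adjusted p of 0.0284 and 0.0338. In that fit 266 of 12485 genes were called, against 551 of 11778 with all libraries. The summed neuronal markers in Oligo were 1374, 481 and 1216 CPM in controls and 702, 727 and 686 in ALP, and all 4 had lower means in ALP. Their part in these values was not tested. The Oligo clusters were also unequally filled. Cluster 12 held 1.16, 8.42 and 1.64% of Oligo nuclei in controls and 23.0, 12 and 26.9% in ALP, and cluster 10 held 30.8, 10.5 and 20.1% and 2.98, 5.26 and 2.45%. GRIA1 was 53.9 CPM in cluster 12 and 80.4 CPM in cluster 10, and GRIK2 was 1002 and 1898 CPM. The part of these shares in the values of the whole class was not tested. GRIK2 in Oligo ran opposite to the AMPA subunits among controls, with 1954, 1038 and 892 scaled CPM, and was 1430, 1108 and 1623 in ALP (log2 fold change 0.09 ± 0.29).

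Of the other classes, GRIA4 in Astro was 56.1, 25.2 and 33.1 scaled CPM in controls and 24.5, 14 and 24.8 in ALP (log2 fold change -0.94 ± 0.36, adjusted p = 0.215), beside summed neuronal markers of 372 to 522 CPM in controls and 252 to 328 CPM in ALP, all 4 lower in ALP. The study also reports GRIK2 as lower in ALP among its astrocyte subpopulations. In the whole Astro class here GRIK2 was 298, 259 and 338 against 259, 238 and 274 scaled CPM, with overlap (log2 fold change -0.22). In shallow ExN GRIA4 was 200, 293 and 205 scaled CPM in controls and 376, 365 and 340 in ALP (log2 fold change 0.71 ± 0.24, adjusted p = 0.213). In Micro GRIA2 had a log2 fold change of 0.61 ± 0.27 (adjusted p = 0.335), beside neuronal markers of 1566 to 1895 CPM in controls and 2095 to 2339 CPM in ALP. The Micro cluster with Gran markers, where GRIA2 was 330 ± 51.3 CPM against 80.5 ± 16 in the larger cluster, held 6.73, 20 and 4.47% of Micro nuclei in controls and 16.3, 13.4 and 18.1% in ALP. Over all nuclei GRIA2 and GRIA3 had log2 fold changes of 0.38 ± 0.16 and 0.39 ± 0.17 (adjusted p of 0.190 and 0.208). Without the scaling factors both overlapped there, with GRIA2 at 278 CPM in Control 2 and 276 CPM in ALP 2. GRIA3 was 231 and 219 CPM in the same libraries. In such whole sums fewer nuclei of a class and less RNA per nucleus cannot be told apart. GRIK2 was nearly level over all nuclei, with a log2 fold change of 0.00 ± 0.17.

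The share of each subunit among the UMIs of its family needs no scaling between libraries. It is a share of UMIs, not of receptors, and 3 against 3 libraries cannot give a p below 0.1 (exact two-sided permutation test, 40 shares compared). After Benjamini-Hochberg adjustment over the 40 shares, each permutation p of 0.100 here and below became 0.444. GRIA2 took 26.0% ± 1.02 (SD, n = 3) of AMPA subunit UMIs in Gran of controls and 30.3% ± 2.27 in ALP (exact permutation p = 0.100). In Pyra it took 21.9% ± 1.69 and 26.9% ± 1.20 (exact permutation p = 0.100), and GRIA3 took 19.6% ± 2.82 and 24.7% ± 2.44 (exact permutation p = 0.100). These shares depend on GRIA4, which took 42.2, 30.8 and 12.5% in control and 9.92, 23.7 and 9.44% in ALP libraries in Pyra. In shallow ExN GRIA1 took 46.6% ± 3.71 and 39.1% ± 3.21 and GRIA4 took 10.2% ± 2.18 and 16.5% ± 0.203 (exact permutation p = 0.100 for each). In InN the AMPA shares overlapped between groups, with GRIA1 at 47.8% ± 4.29 and 44.7% ± 3.17 and GRIA2 at 11.1% ± 1.81 and 10.7% ± 1.34. GRIA4 took 28.5% ± 5.07 and 31.8% ± 0.776 there, with Control 1 at 34.4%, above the ALP libraries.

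**Figure D5:**
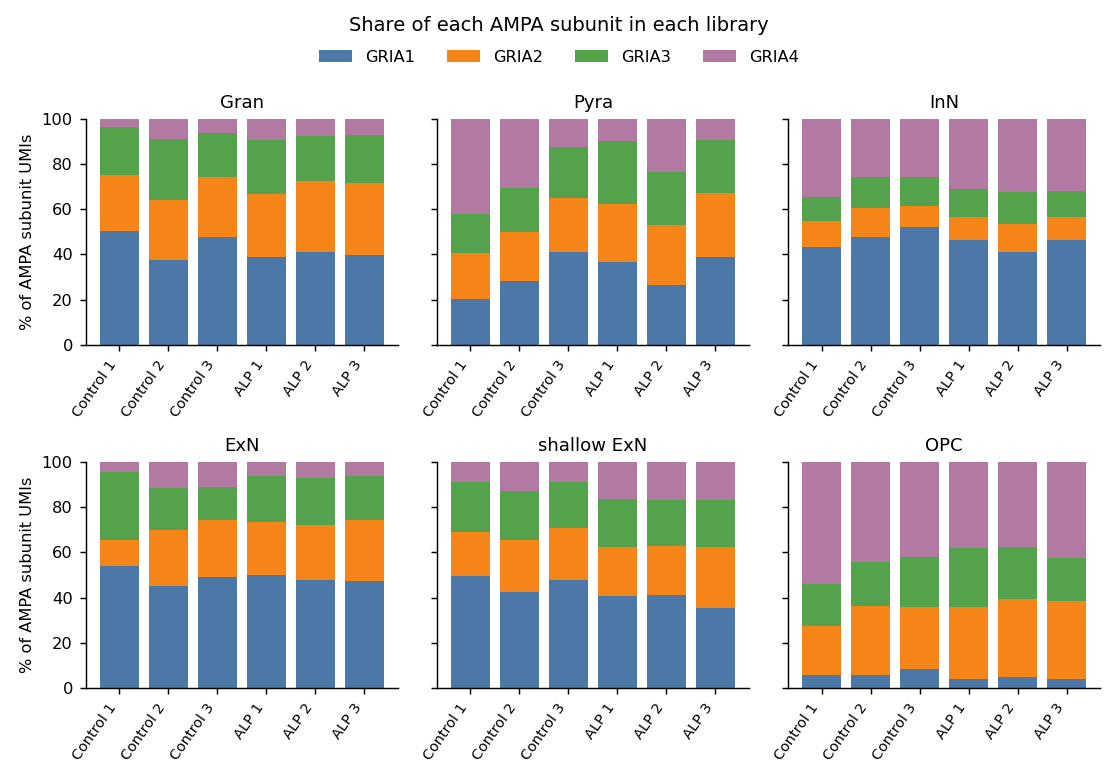
Share of each AMPA subunit among the AMPA subunit UMIs (percent, stacked to 100) in every library, for 5 neuronal classes and OPC. OPC have little GRIA1 and much GRIA4, Gran the reverse, and in Pyra the GRIA4 share runs from 9.44 to 42.2% between libraries.

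Of kainate UMIs, GRIK2 took 93.4% ± 0.349 in control and 92.2% ± 0.645 in ALP libraries in InN (exact permutation p = 0.100), and GRIK3 took 1.27% ± 0.00856 and 1.70% ± 0.178 (exact permutation p = 0.100). GRIK4 took 2.56% ± 0.176 and 3.64% ± 1.01 of kainate UMIs there (exact permutation p = 0.100). When GRIK1li1 was counted among them, the shares of GRIK2 in InN became 49.8% ± 6.24 and 52.1% ± 1.5, so that the sign of the difference turned with the handling of the copy. In Gran GRIK5 took 6.13% ± 1.07 and 4.17% ± 0.457 (exact permutation p = 0.100), and in Pyra GRIK4 took 9.35% ± 2.10 and 5.04% ± 1.79 (exact permutation p = 0.200). The copy took 46.7% ± 6.71 and 43.4% ± 2.03 of kainate UMIs in InN with overlapping groups.

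Among the 25 partner genes (mainly auxiliary subunits, trafficking and editing genes), none was called with edgeR in any class, and 12 pairs of gene and comparison had an unadjusted p under 0.05. These were 2 of 17 tested partners in Gran, 2 of 18 in InN, 1 of 15 in ExN and 1 of 12 in Astro. The rest were 3 of 14 in OPC, 1 of 13 in Oligo and 2 of 20 over all nuclei. Of all genes, 18.1% in Gran, 19.7% in InN, 17.2% in Astro and 15.4% in OPC reached such a p. It was 21.7% in Oligo, 23.4% over all nuclei and 626 of 3817 genes in ExN. In Gran 4 of 17 tested partners had a positive log2 fold change and their median was -0.17, against 0.009 over all genes. SHISA6, an auxiliary subunit that slows AMPA receptor desensitisation, was nearest to the threshold in Gran with 392, 221 and 320 scaled CPM in controls and 164, 193 and 171 in ALP (log2 fold change -0.87 ± 0.20, adjusted p = 0.0512). It passed there with DESeq2, without the filter on low counts and without Control 2. Those fits called 219 of 10295, 772 of 39399 and 357 of 11540 genes. In OPC 1 of 14 partners had a positive value, with a median of -0.22 against 0.000, the lowest being PRRT1 at -0.92 ± 0.40, and NETO2, an auxiliary subunit of kainate receptors, was 67.3, 73.1 and 81.7 against 45.2, 42.0 and 35.8 scaled CPM (log2 fold change -0.85 ± 0.22, adjusted p = 0.0716). In InN, NETO1 was 195, 225 and 216 scaled CPM in controls and 291, 266 and 268 in ALP (log2 fold change 0.38 ± 0.12, adjusted p = 0.135). NETO1 and NETO2 were named here after their values were seen. In Astro 3 of 12 partners had a positive value, with a median of -0.31 against 0.000. In Pyra 12 of 18 did and the median was 0.18, with GSG1L highest at 0.62 ± 0.72.

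Partner levels per class, with means over 6 libraries, help to place the subunits. GRIP1, which anchors GRIA2 and GRIA3, reached 3764 ± 375 CPM in InN against 783 ± 292 in ExN. SHISA6 was 1440 ± 175 CPM in ExN and 710 ± 80.9 in InN. NETO1, which is among the leading genes of the shallow ExN cluster, was highest in ExN (439 ± 104 CPM) and NETO2 in InN (343 ± 76.0), where GRIK2 and GRIK1li1 were also highest. CACNG4, an AMPA receptor auxiliary subunit, was highest in OPC at 106 ± 18.5 CPM with 10.9 ± 8.21 in Astro. ADARB1, the editing enzyme, was 92.1 ± 11.5 CPM in Gran. CACNG7, SYNDIG1 and FRRS1L had no UMI in any kept nucleus, and SHISA7 and SHISA9 had 26 and 14.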

How the data were processed

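Nuclei of the hippocampus of 3 control and 3 ALP TSs were measured with 10x 3′ single-nucleus libraries, 1 library per animal. The authors deposited raw UMI counts per gene and barcode. Per the labels the processing notes name Cell Ranger 3.1.0, whereas the file headers name 6.1.2. The reference genome came from TreeshrewDB. Its build, the use of strand and the use of intronic reads are not given in the sources used here. Barcodes were kept with over 200 and under 2500 genes and under 5% mitochondrial UMIs, as in the study, which removes deep nuclei (16.0 to 46.4% of barcodes had at least 2500 genes). Libraries held 19182981 to 35898940 UMIs in all barcodes. At most 0.465% of barcodes were shared between libraries. Nuclei marked as doublets (1.49 to 4.24% of those kept) stayed in and were left out in an alternative.

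Nuclei were clustered with scanpy 1.11.5 and leidenalg 0.10.2 (resolution 2) and named from markers, since no deposited annotation was used here. UMIs were summed per library and class, for sums of at least 10 nuclei in the cluster values. ALP was compared with control by edgeR 4.0.16 in R 4.3.3 (TMM scaling, filterByExpr with a minimum count of 10, quasi-likelihood test, Benjamini-Hochberg adjustment over all genes of the class), without a replicate block. DESeq2 1.42.0 was an alternative. The scripts were tested on simulated data. Differences between classes of nuclei used a model with the library as a block. Shares of UMIs and orders of classes used exact tests in scipy 1.17.1. For shares of nuclei each nucleus was thinned to 1000 UMIs and shallower nuclei were left out. Genes most like a member were ranked on log2(CPM + 1). Values rest on counting and on 3 animals a group, and levels are not per transcript length, so they are read between classes and libraries and not between genes.

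The members, the 25 partner genes and the marker lists were chosen with earlier results of these data known. Named were the 9 members, their copies and antisense features, the partners that were called or had the highest or lowest log2 fold change of a class, and the 3 genes most like each member, except a few items not reported here, with any other name said to be chosen after its values were seen. Alternatives were another normalization, no filter on low counts, a replicate block, DESeq2, each library left out, no upper limit on genes, doublets removed, another resolution and other thinning depths. Leaving out LINC-FRMD8-1, fitting Pyra clusters alone and counting GRIK1li1 as a kainate subunit were added after seeing the data.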

Additional observations from a re-analysis of the deposited data

Results flagged for a closer look

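GRIA4 lay on opposite sides of the controls in different classes. In scaled CPM every ALP library was above every control library in InN, with a log2 fold change of 0.36. The same held in shallow ExN, with 0.71. Without the scaling factors GRIA4 in InN overlapped, with 630 CPM in Control 3 and 626 CPM in ALP 2. Its share of AMPA subunit UMIs in InN overlapped too. Shallow ExN nuclei had a median of 793, 708 and 718 UMIs in controls and 991, 825.5 and 1671 in ALP. The part of this depth in the GRIA4 value was not tested. Every ALP library was below every control library in Astro, with -0.94. That value rests on 74, 18 and 53 UMIs in controls and 11, 19 and 21 in ALP. Control 2 and ALP 3 lay close there, at 25.2 and 24.8 scaled CPM. The 4 summed neuronal markers were also lower in ALP Astro. The difference between Astro and InN or shallow ExN was not tested. Of all genes tested, 11.3% in InN and 8.30% in shallow ExN lay above all controls in this way, and 10.7% in Astro lay below. None of the 3 values passed the adjusted threshold in its own class.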

How the results depend on the processing

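Among the 14 pairs of member and comparison with an unadjusted p under 0.05, 1 changed sign in an alternative, and among the other 74 pairs 39 did, including GRIK1li1 and GRIA3 in Gran (2 of 14 alternatives each), GRIK2 in Oligo (3 of 14) and GRIK2 in all nuclei (6 of 14). Members called ranged from 0 to 1 in Pyra and from 0 to 2 in Oligo over the left-out libraries (1 in Pyra without ALP 2, 2 in Oligo without Control 1). Of all genes, 162 of 13359 and 266 of 12485 were called in those fits. Partners called ranged from 0 to 1 over the left-out libraries in Gran (1 without Control 2), Oligo (1 without ALP 2) and all nuclei (1 without Control 2). There 357 of 11540, 1054 of 12978 and 2245 of 24392 genes were called. Partners called were also 1 in Gran and all nuclei with DESeq2, and 1 in Gran, Oligo and all nuclei without the filter on low counts. DESeq2 called 219 of 10295 and 1740 of 22749 genes there. The unfiltered fits called 772 of 39399, 1336 of 40464 and 3386 of 54978 genes. The partner was SHISA6 in Gran and CACNG3 in all nuclei. Pairs with an unadjusted p under 0.05 ranged from 5 to 21 around 14, with 6 without ALP 1 and 5 without ALP 3. Members called for Pyra minus Gran and for InN minus Pyra each ranged from 0 to 2. GRIA2 in Micro reversed to -0.01 with no upper limit on genes, and the GRIK2 share in InN reversed to 2.33 percentage points with GRIK1li1 counted. Why was not tested.

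With no upper limit on genes GRIA1 in InN was 1170 CPM and GRIK5 in ExN 118 CPM, and the highest class changed for 4 of 9 features (GRIA3 and GRIK5 to Pyra, GRIA4 and GRIK3 to InN). With LINC-FRMD8-1 out of the total, which raises every CPM by construction, GRIA1, GRIK2 and GRIK1li1 in InN were 1262, 2850 and 2539 CPM, GRIA3 in shallow ExN 515, GRIA4 and GRIK3 in OPC 925 and 61.2, and GRIK5 in ExN 186. Thinned to 500 UMIs and not thinned, the shares of nuclei were 33.1 and 80.7% for GRIA1, 59.6 and 95.2% for GRIK2 and 53.0 and 85.3% for GRIK1li1 in InN, and 23.7 and 60.7% for GRIA2 in OPC.

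Over all nuclei, deviations of same-numbered libraries from their group means had correlations of -0.10, -0.06 and -0.08. Other pairs had correlations of 0.02 to 0.06. Such small values cannot tell whether equal numbers pair the animals, and the labels do not say. With a replicate block 12 pairs had an unadjusted p under 0.05, no member was called, and GRIA4 and GRIK4 in Pyra had log2 fold changes of -0.92 and -1.06. Control 2 had the fewest Gran nuclei (57, with 208775 UMIs) and Control 3 the fewest Pyra nuclei (60, with 152064 UMIs). Smaller sums were tested in other classes, such as 46485 UMIs in Endo of ALP 1.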
